A study of Mus musculus with 8 samples.

Results

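The glutathione S-transferases, UDP-glucuronosyltransferases and sulfotransferases of the mouse were followed in the epithelium of 4 regions of the embryonic gut. Members were taken by symbol: the cytosolic and kappa Gst genes of the alpha, mu, omega, pi, theta, zeta and kappa classes, the Ugt1 and Ugt2 genes, and the Sult genes. The table of 23393 gene symbols held 58 of them, of which 21 were Gst, 18 Ugt and 19 Sult genes. Poly(A) RNA had been sequenced from 8 libraries of mouse embryos at E16.5, late in gestation, 2 each from forestomach, hindstomach, proximal small intestine (called intestine here) and colon. All groups were untreated, and the labels' protocol names ShhCre;R26YFP/+ embryos as the source of E16.5 gut epithelium. In such embryos Cre, made by cells that express Shh, which include the gut epithelium, turns on a yellow fluorescent reporter. The forestomach, cut off at the boundary between squamous and glandular lining, was loosened with Dispase and its epithelium peeled away by hand, whereas the other 3 epithelia were shaken loose in EDTA, used at a higher concentration for the hindstomach. Region and isolation method therefore cannot be told apart for the forestomach, nor region and EDTA concentration for the hindstomach.

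These enzymes carry out conjugation, often called phase II of drug metabolism, in which a polar group is attached to a reactive or fat-soluble molecule. Gst enzymes join the tripeptide glutathione to electrophiles, Ugt enzymes transfer glucuronic acid from UDP-glucuronate inside the endoplasmic reticulum, and Sult enzymes transfer sulfate from the donor PAPS in the cytosol. The products are then carried out of the cell by export pumps. In the adult the liver is best known for this work, and the gut lining, which meets ingested compounds first, also performs it. Several of the enzymes also act on the body's own compounds: bilirubin, bile acids, steroids, thyroid hormone, catecholamines and products of lipid peroxidation.

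The labelled tissues were checked against markers. Summed over 10 squamous genes, hindstomach, intestine and colon libraries held 1.5 to 293 FPKM (fragments scaled to transcript length and library size) and forestomach replicate 2 held 51080.4 FPKM. The library labelled forestomach replicate 1 held 1796 FPKM of squamous markers but 168603 FPKM of 11 gastric glandular markers, against 82.0 FPKM of the latter in replicate 2 and 1726 and 2531 FPKM in the hindstomach. It also held 4577 FPKM of 13 mesenchymal markers, where the other libraries held 88.3 to 1808 FPKM, and its 10 most abundant genes made up 52.5% of its FPKM, against 6.27% to 17.4% elsewhere. The fit was therefore made with all 8 libraries and again without that library, a 7-library fit in which the lone forestomach library is assumed to vary like the other groups. Values are from the 8-library fit unless stated. Every member called in it was also called in the 7-library fit, in the same comparison and direction, except Ugt1a6a. Small intestinal markers (10 genes) summed to 3539 and 4063 FPKM in the hindstomach, 18851 and 27686 FPKM in the intestine, and 14259 and 4516 FPKM in the colon. Pancreatic acinar markers (11 genes) summed to 36.4 and 2.0 FPKM in the forestomach, 3732.6 and 1011.5 FPKM in the hindstomach, 2422 and 417 FPKM in the intestine, and 1545.8 and 465 FPKM in the colon, so they too were lowest in the forestomach, and their part in differences from it was not tested. Blood, endothelial and neural markers summed to at most 69.0 FPKM in every library. Whether the 2 libraries of a tissue were made from different embryos is not stated, and the p-values then reflect only the scatter between libraries, possibly of technical origin. Absolute depth is not known from FPKM, and in tissue-level RNA fewer cells of a type and less RNA per cell cannot be told apart.

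The 3 families divided the gut differently (stacked bars of summed FPKM). Summed Gst levels were 3516 and 2869 FPKM in the forestomach, 2605 and 3047 FPKM in the hindstomach, 961 and 981 FPKM in the intestine, and 930.01 and 823 FPKM in the colon. All 4 stomach libraries thus stood above all 4 bowel libraries, bowel meaning intestine and colon. Summed Ugt levels ran the other way, at 86.6 and 35.7 FPKM in the forestomach, 205 and 154 FPKM in the hindstomach, 333 and 309 FPKM in the intestine, and 279 and 210.3 FPKM in the colon, again without overlap between stomach and bowel. The Gst separation also held with every library set to the same total and with median-of-ratios scaling, whereas with the latter the Ugt sums overlapped (highest stomach library 181 FPKM, lowest bowel library 167 FPKM). Summed Sult levels overlapped, at 381 and 109.8 FPKM in the forestomach, 173 and 169 FPKM in the hindstomach, 187 and 217 FPKM in the intestine, and 144 and 81.7 FPKM in the colon. The gene that led each sum depended on the library. Gsta4 held 33.7% to 52.8% of the Gst sum in the stomach libraries and Gstp1 held 29.8% to 35.9% in the bowel libraries. Ugt2b34 led the Ugt sum in 7 libraries and Ugt1a1 in forestomach replicate 2. Sult1d1 led the Sult sum in all 6 hindstomach, intestine and colon libraries, while Sult1c2 held 68.9% in forestomach replicate 1 and Sult2b1 held 93.6% in forestomach replicate 2.

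**Figure D1:**
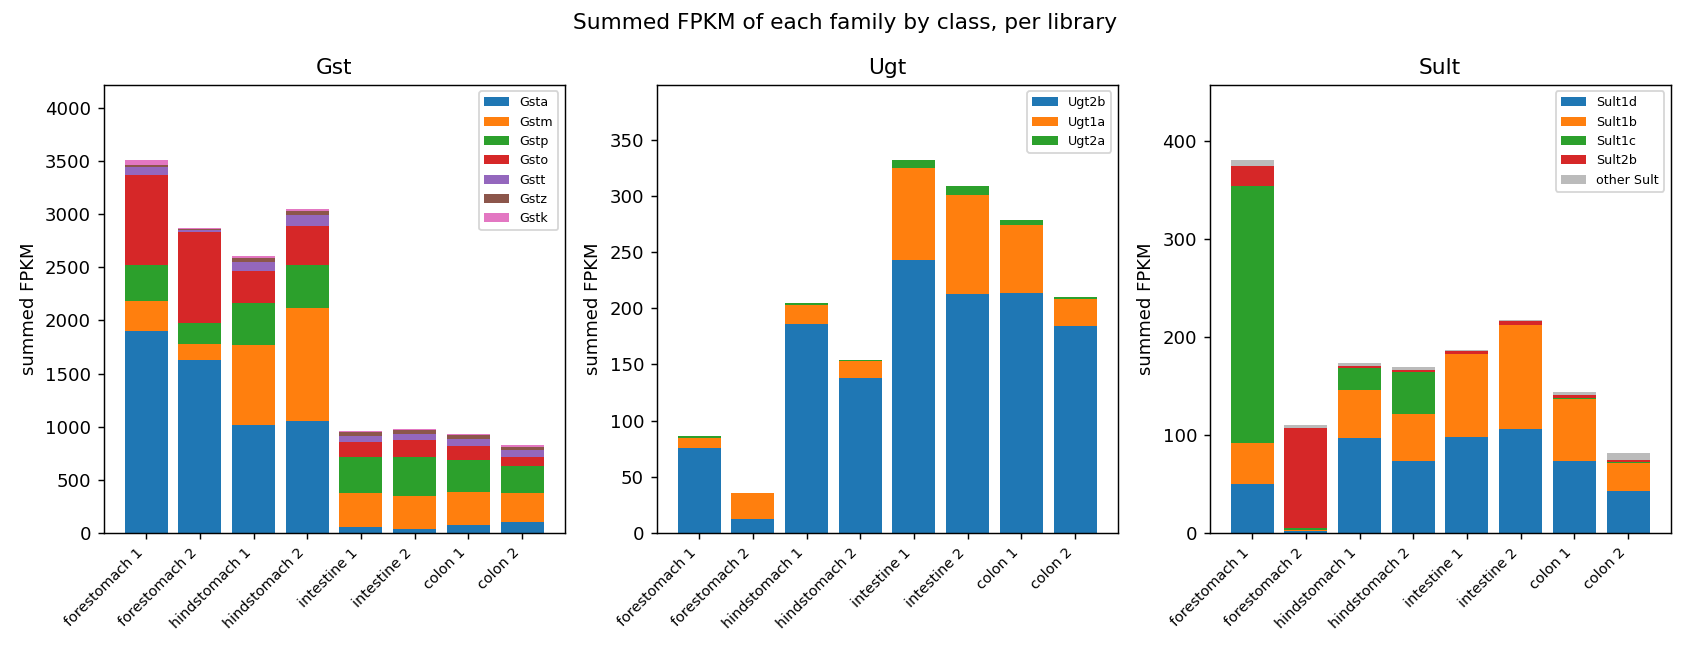
Summed FPKM of the Gst, Ugt and Sult members in each of the 8 libraries, stacked by class, with 1 panel per family and its own linear vertical axis from 0. The 4 stomach libraries stand above the 4 bowel libraries for Gst and below them for Ugt, and the Sult bars overlap.

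Of the 58 members, 37 reached 1 FPKM in at least 2 libraries and were tested with limma among 12894 genes: 20 Gst, 10 Ugt and 7 Sult genes. The broadest comparison was bowel (mean of intestine and colon) minus stomach (mean of forestomach and hindstomach). A member counted as called when its Benjamini-Hochberg adjusted p was under 0.05 and its change reached 2-fold on the log2(FPKM + 1) scale, which understates the change of low genes. With all libraries 6 of the 37 members were called higher in the bowel and 4 lower, where 7.25% of all tested genes were called higher and 3.33% lower. The members called higher were 4 Ugt genes (Ugt2b5, Ugt1a9, Ugt2b36 and Ugt1a7c) and 2 Gst genes (Gstm3 and Gstm4), and those called lower were Gsta4, Gsta1, Gsto1 and Ugt1a6a. In the fit that left out forestomach replicate 1, 34 members were tested among 12502 genes, with 12 called higher and 6 lower, where the shares over all genes were 10.8% and 6.27%. The median member changed by -0.06 on the log2 scale with all libraries and the median gene by 0.07, and without forestomach replicate 1 the medians were 0.47 and 0.01. By family the medians were -0.54 for Gst, 1.68 for Ugt and -0.06 for Sult genes, and 0.06, 2.12 and 0.02 without that library, so those of Gst and Sult changed sign.

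**Figure D2:**
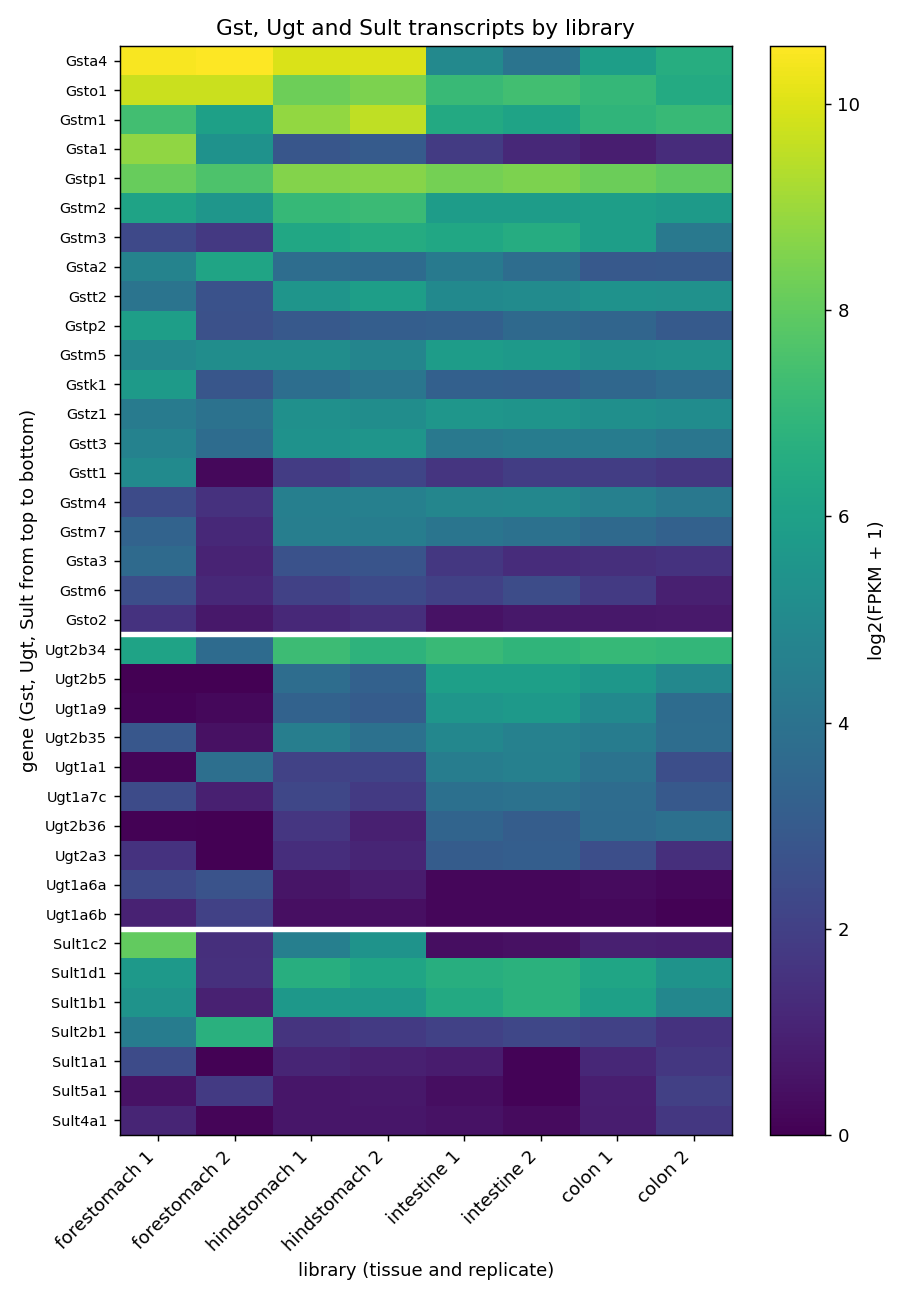
Heat map of log2(FPKM + 1) for the 37 tested members (rows) in the 8 libraries (columns). Bright yellow marks high and dark purple low levels: Gsta4 and Gsto1 are brightest in the stomach columns, Ugt2b5 and Ugt1a9 in the bowel columns, and Sult1b1 and Sult1d1 are dark in forestomach replicate 2 alone.

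Gsta4, which clears 4-hydroxynonenal, a toxic aldehyde from lipid peroxidation, was the most abundant member and a stomach gene. It lies on chromosome 9 (GRCm38 78182774 to 78209349, plus strand). Its levels were 1419 and 1515 FPKM in the forestomach, 988 and 1026 FPKM in the hindstomach, 30.1 and 15.5 FPKM in the intestine, and 59.7 and 94.4 FPKM in the colon. As means these were 1467 ± 67.6, 1007 ± 26.9, 22.8 ± 10.3 and 77.1 ± 24.6 FPKM (SD, n = 2 each). Both stomach regions were high and no bowel library came near them. The bowel level was lower by 29.3-fold (log2 change -4.87 ± 0.26 SE, limma adjusted p 0.000384), and the step from hindstomach to intestine was 44.4-fold (-5.47 ± 0.37, adjusted p 0.0043). Forestomach and hindstomach did not differ by the call, and both colon libraries were above both intestine libraries without being called (1.75 ± 0.37, adjusted p 0.204). The bowel call was made in all 14 alternative settings tried.

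**Figure D3:**
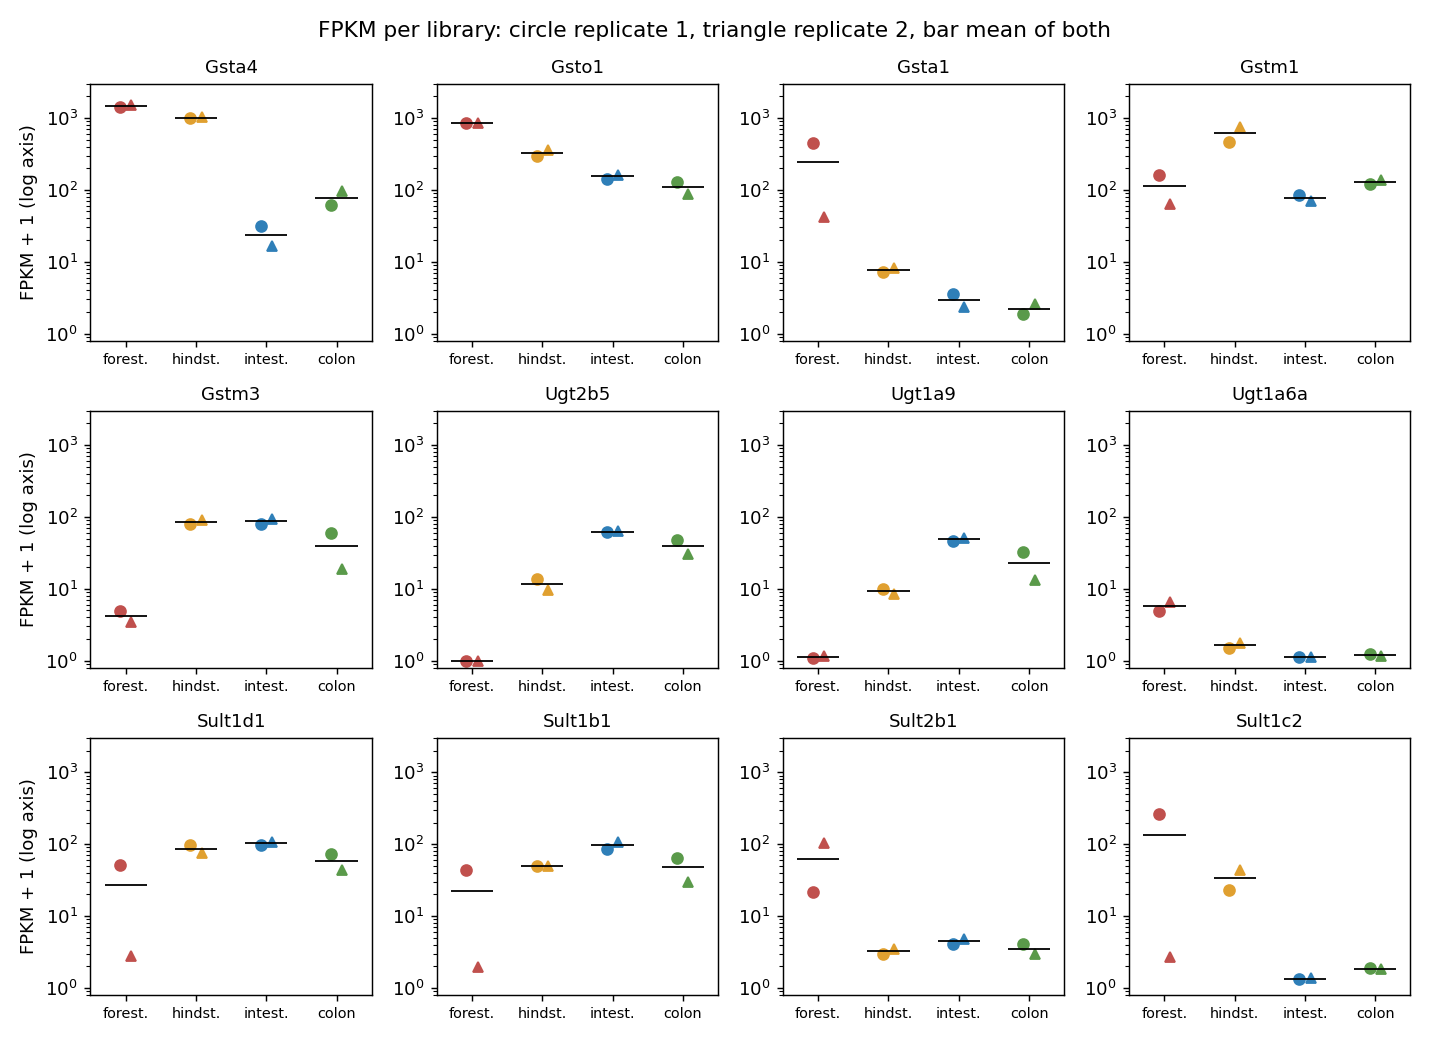
FPKM + 1 on a log axis for 12 members in the 4 tissues, with replicate 1 as a circle, replicate 2 as a triangle and the mean as a bar. Gsta4 drops between hindstomach and intestine, Ugt2b5 and Ugt1a9 climb from forestomach to intestine, and Gsta1, Sult1b1, Sult1d1, Sult2b1 and Sult1c2 show the wide gap between the forestomach libraries.

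Gsto1, an omega-class enzyme with thiol transferase and dehydroascorbate reductase activity, was likewise higher in the stomach than in the bowel, by a smaller factor. It was at 849 and 854 FPKM in the forestomach, 298 and 359 FPKM in the hindstomach, 142 and 162 FPKM in the intestine, and 129 and 86.3 FPKM in the colon. The forestomach pair was close despite the difference in markers between these libraries. The bowel was 4.15-fold lower than the stomach (-2.05 ± 0.18, adjusted p 0.00175, kept in all 14 alternatives), and the hindstomach lay below the forestomach (-1.38 ± 0.26, adjusted p 0.039), a call kept in only 4 of 15 alternatives. Its neighbour Gsto2 stayed between 0.41 and 1.91 FPKM and was not called. Neither Gsta4 nor Gsto1 shares a 50-base stretch with another gene of the annotation.

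The other alpha-class genes were less regular. Gsta1, a transferase with broad specificity for electrophiles, was at 443 and 40.3 FPKM in the forestomach, 6.12 and 7.15 FPKM in the hindstomach, 2.52 and 1.33 FPKM in the intestine, and 0.858 and 1.55 FPKM in the colon. All 4 stomach libraries lay above all 4 bowel libraries, and Gsta1 was called lower in the bowel (-3.69 ± 0.72, adjusted p 0.0209), a call kept in 8 of 14 alternatives, at -2.83 ± 0.21 without forestomach replicate 1. Of its 50-base stretches 90.5% also occur in other transcripts, most of them in the gene model Gm3776, so its level is uncertain. Gsta2 was at 25.1 and 70.2 FPKM in the forestomach and between 6.74 and 19.05 FPKM elsewhere. It fell in the bowel only in the fit without forestomach replicate 1 (-1.44 ± 0.15, adjusted p 0.00175). Gsta3 ranged from 1.09 FPKM in forestomach replicate 2 to 11.6 FPKM in replicate 1, so the forestomach libraries spanned all 6 others.

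The mu class has 7 genes in 1 cluster on chromosome 3 (GRCm38 107895821 to 108044894). Its sum was highest in the hindstomach, at 760 and 1062 FPKM against 151 to 323 FPKM in the other libraries, and most of it was Gstm1. Gstm3, Gstm4, Gstm5 and Gstm6 had their highest mean in the intestine. Gstm1, the most abundant, was at 162 and 63.3 FPKM in the forestomach, 464 and 749 FPKM in the hindstomach, 84.8 and 68.8 FPKM in the intestine, and 121 and 136 FPKM in the colon. Both hindstomach libraries exceeded the 6 others, and Gstm1 rose from forestomach to hindstomach (2.53 ± 0.47, adjusted p 0.0383) and fell from hindstomach to intestine (-2.93 ± 0.47, adjusted p 0.0287), calls kept in 4 and 7 of 15 alternatives. Without forestomach replicate 1 the rise was 3.20 ± 0.31. Gstm2 had the same shape with a smaller range, at 68.9 and 45.7 FPKM in the forestomach, 135 and 148 FPKM in the hindstomach, 56.4 and 56.2 FPKM in the intestine, and 59.55 and 52.9 FPKM in the colon. It too was called in both steps (1.32 ± 0.23, adjusted p 0.033, and -1.31 ± 0.23, adjusted p 0.0356), kept in 5 and 6 of 15 alternatives. For Gstm1 and Gstm2 all of these calls were lost with the replicate block.

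Gstm3 and Gstm4 instead separated the forestomach from everything else. Gstm3 was at 3.98 and 2.41 FPKM in the forestomach, 78.4 and 89.5 FPKM in the hindstomach, 78.2 and 93.3 FPKM in the intestine, and 59.1 and 18.05 FPKM in the colon. Hindstomach and intestine overlapped, and colon replicate 2 was the lowest outside the forestomach. The step from forestomach to hindstomach was 20.6-fold (4.36 ± 0.53, adjusted p 0.0115). Gstm4 was at 4.31 and 1.88 FPKM in the forestomach and between 17.8 and 29.1 FPKM in the 6 other libraries, and rose in the hindstomach by 2.62 ± 0.31 on the log2 scale (adjusted p 0.011). Both were also called higher in the bowel than in the stomach, Gstm3 at 1.53 ± 0.37 (adjusted p 0.0421) and Gstm4 at 1.37 ± 0.22 (adjusted p 0.0112), although their hindstomach levels lay among or beside the bowel levels. Gstm3 kept that call in 6 and Gstm4 in 9 of 14 alternatives. The ratio of Gstm1 to Gstm3 therefore changed along the gut, from 40.7 and 26.3 in the forestomach to 5.92 and 8.37 in the hindstomach, 1.08 and 0.737 in the intestine, and 2.05 and 7.54 in the colon. Gstm5 was the flattest of the abundant mu genes, between 26.9 and 56.1 FPKM, with all 4 bowel libraries above all 4 stomach libraries but no call. Gstm7 was at 9.35 and 1.31 FPKM in the forestomach and 8.73 to 21.9 FPKM elsewhere, and Gstm6 never exceeded 4.84 FPKM.

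In the pi, theta, zeta and kappa classes no member was called between stomach and bowel with all libraries, and Gstt2 alone was called higher in the bowel without forestomach replicate 1 (1.02 ± 0.12, adjusted p 0.00251). Gstp1, the pi-class enzyme found in many epithelia, was at 279 and 193 FPKM in the forestomach, 386 and 406 FPKM in the hindstomach, 328 and 352 FPKM in the intestine, and 296 and 245 FPKM in the colon. Its bowel minus stomach difference was -0.00 ± 0.18 on the log2 scale (adjusted p 0.994). With Gsta4 and Gsto1 low there, the pi class made up 6.91% to 15.1% of the Gst sum in the stomach libraries and 30.6% to 37.0% in the bowel libraries. Gstp2, which shares 54.3% of its 50-base stretches with other transcripts, mainly Gstp1, was at 59.05 FPKM in forestomach replicate 1 and between 5.08 and 11.2 FPKM elsewhere.

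Theta and zeta genes were lowest in forestomach replicate 2. Gstt2 was at 15.6 and 5.34 FPKM in the forestomach, 44.6 and 59.4 FPKM in the hindstomach, 31.0 and 33.1 FPKM in the intestine, and 40.4 and 40.2 FPKM in the colon. It rose from forestomach to hindstomach (2.36 ± 0.44, adjusted p 0.038, kept in 4 of 15 alternatives), by 3.05 ± 0.19 without forestomach replicate 1. Gstz1, the maleylacetoacetate isomerase of tyrosine breakdown, was at 20.3 and 14.8 FPKM in the forestomach and 33.8 to 45.65 FPKM in all other libraries, and rose in the hindstomach by 1.04 ± 0.20 (adjusted p 0.0399, also kept in 4 of 15). Gstt3 ran from 12.2 FPKM in forestomach replicate 2 to 44.9 FPKM in hindstomach replicate 2. Gstt1 was at 32.2 and 0.176 FPKM in the forestomach pair and 2.07 to 3.64 FPKM elsewhere, and the mitochondrial and peroxisomal kappa enzyme Gstk1 was at 52.6 and 6.02 FPKM in that pair and 8.29 to 16.9 FPKM elsewhere. For Gstk1, Gstt1 and Gstp2 the forestomach pair thus spanned every other library. Gstt4 was the sole Gst member not tested, with a highest value of 0.098 FPKM.

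The Ugt2 genes sit in a cluster on chromosome 5 (GRCm38 86889767 to 87591594) that also holds 3 sulfotransferases, 13 members in all, 7 of them tested. Ugt2b5 showed the clearest rise along the gut. It was listed at 0 in both forestomach libraries, at 12.9 and 8.59 FPKM in the hindstomach, 61.6 and 61.9 FPKM in the intestine, and 46.96 and 29.65 FPKM in the colon. Each tissue stood apart from the next one without overlap. It rose from forestomach to hindstomach (3.53 ± 0.28, adjusted p 0.0037) and again from hindstomach to intestine (2.44 ± 0.28, adjusted p 0.0147), and the bowel exceeded the stomach by 3.85 ± 0.20 (adjusted p 0.000352). For a gene listed at 0 the size of such a difference depends on the 1 FPKM added before the log. Of its 50-base stretches 41.7% occur in other transcripts, mainly Ugt2b38, which itself never exceeded 0.0481 FPKM.

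Ugt2b36 was near 0 in the forestomach (0.0428 and 0 FPKM), at 2.19 and 0.913 FPKM in the hindstomach, 9.61 and 7.55 FPKM in the intestine, and 12.1 and 14.1 FPKM in the colon. It was the single tested Ugt gene with its highest mean in the colon. It rose in the bowel by 2.87 ± 0.21 (limma adjusted p 0.000873). From hindstomach to intestine it rose by 1.95 ± 0.30 (adjusted p 0.0249), a call kept in 9 of 15 alternatives. Ugt2b34, the most abundant Ugt gene, did not follow this order. It was at 68.9 and 11.9 FPKM in the forestomach, 149 and 114 FPKM in the hindstomach, 144 and 119 FPKM in the intestine, and 135 and 128 FPKM in the colon. Hindstomach, intestine and colon overlapped completely, and only the forestomach was lower, by 3.35 ± 0.21 in the fit without forestomach replicate 1 (adjusted p 0.000562). Ugt2b35 was at 6.27 and 0.384 FPKM in the forestomach, 22.1 and 14.4 FPKM in the hindstomach, 28.25 and 23.7 FPKM in the intestine, and 20.4 and 12.5 FPKM in the colon, again with the lowest level in forestomach replicate 2. Ugt2a3 was at most 1.90 FPKM in the stomach and reached 7.45 and 7.98 FPKM in the intestine and 4.74 and 1.65 FPKM in the colon. It was called higher in the bowel only without forestomach replicate 1 (1.93 ± 0.29, adjusted p 0.00504).

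The Ugt1a genes lie on chromosome 1 (GRCm38 88055388 to 88220002). Each has its own first exon and start site and all share the following exons, so reads of the shared part cannot be assigned to 1 gene and separate values are uncertain: 52.1% to 64.0% of the 50-base stretches of Ugt1a members recur in other transcripts, and 79.8% of those of Ugt1a6b. Ugt1a9, whose relatives glucuronidate phenols, was at 0.0845 and 0.18 FPKM in the forestomach, 8.92 and 7.54 FPKM in the hindstomach, 45.9 and 50.65 FPKM in the intestine, and 31.75 and 12.2 FPKM in the colon. It rose at both steps (3.02 ± 0.42, limma adjusted p 0.0174, and 2.42 ± 0.42, adjusted p 0.0327), calls kept in 11 and 9 of 15 alternatives. Its bowel minus stomach difference was 3.31 ± 0.29 (adjusted p 0.00168). Ugt1a7c was at 4.27 and 0.88 FPKM in the forestomach, 3.74 and 2.47 FPKM in the hindstomach, 14.1 and 14.7 FPKM in the intestine, and 12.4 and 6.70 FPKM in the colon. No stomach library reached the lowest bowel library, and Ugt1a7c was called higher in the bowel (1.81 ± 0.37, adjusted p 0.025), in 9 of 14 alternatives.

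Ugt1a6a went the opposite way within the same locus. It was at 3.95 and 5.49 FPKM in the forestomach, 0.522 and 0.737 FPKM in the hindstomach, 0.123 and 0.128 FPKM in the intestine, and 0.239 and 0.153 FPKM in the colon. It was called lower in the hindstomach than in the forestomach (-1.80 ± 0.22, adjusted p 0.0123) and lower in the bowel than in the stomach (-1.39 ± 0.16, adjusted p 0.00382). Only the forestomach libraries reached 1 FPKM, so Ugt1a6a passed the filter solely through the group where it was high. The direction of both calls followed from that, and they are a description and no test. With either forestomach library left out it was not tested, since only 1 library then reached 1 FPKM. The near-identical Ugt1a6b was at 1.04 and 3.18 FPKM in the forestomach and at most 0.359 FPKM in every other library. Ugt1a1, the enzyme that glucuronidates bilirubin, was at 0.103 and 13.6 FPKM in the forestomach, 3.26 and 3.38 FPKM in the hindstomach, 21.45 and 23.3 FPKM in the intestine, and 15.2 and 4.81 FPKM in the colon. The forestomach libraries spanned the hindstomach, and the bowel difference was not called in either fit. In the fit without forestomach replicate 1 Ugt1a1 rose from hindstomach to intestine (2.44 ± 0.46, adjusted p 0.0164).

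The tested Ugt genes split by their hindstomach level. In 6 of them (Ugt1a1, Ugt1a9, Ugt2b5, Ugt2a3, Ugt2b36 and Ugt1a7c) the mean hindstomach level was 14.8% to 21.5% of the mean intestine level. The 9 small intestinal markers with at least 1 FPKM in the intestine, among them Lct, Fabp1 and Cdx2, stood at 13.9% to 24.9% of their intestine level in the hindstomach, with a median of 15.3%. These Ugt genes were grouped by that same proportion, so its nearness to the proportion of the markers is a description and no test. The part of intestinal-type cells or transcripts in the hindstomach values was not tested. The other 4 tested Ugt genes lay above that range, Ugt2b35 at 70.3%, Ugt2b34 at 100.1%, Ugt1a6b at 251% and Ugt1a6a at 503%. The next member above the 6 was Sult1b1 at 51.2%, then Gstm5 at 58.1%, with Sult1d1 at 83.4% and Gstm3 at 97.9%. In the colon, replicate 2 held fewer small intestinal markers in sum than replicate 1 (values above). It was also the lower library for Ugt1a9, Ugt1a1, Ugt1a7c, Ugt2b5 and Ugt2a3, though not for Ugt2b36. That did not set these genes apart, since it was likewise the lower library for Ugt2b35, Sult1b1, Sult1d1 and Gstm3. Colon replicate 2 also held more mesenchymal (1808 against 831 FPKM), endothelial (56.9 against 20.1 FPKM) and neural (69.0 against 24.4 FPKM) markers in sum, and the part of this in the members' values was not tested.

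Promoters were examined for the members with an entry in the RefSeq table of GRCm38.p6, 51 of 58, with 62 start sites. The neighbouring genes Ugt1a9 and Ugt1a10 are shown because their promoters share a run of 20 bases while their listed levels differ. The stretches lie on the plus strand at chr1:88070629-88070778 for Ugt1a9 and chr1:88055238-88055387 for Ugt1a10, written 5′ to 3′, with the longest run of identical bases (20) in capitals.
Ugt1a9: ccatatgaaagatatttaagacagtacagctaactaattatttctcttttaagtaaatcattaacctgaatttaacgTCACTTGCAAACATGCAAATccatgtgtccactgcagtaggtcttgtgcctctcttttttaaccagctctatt
Ugt1a10: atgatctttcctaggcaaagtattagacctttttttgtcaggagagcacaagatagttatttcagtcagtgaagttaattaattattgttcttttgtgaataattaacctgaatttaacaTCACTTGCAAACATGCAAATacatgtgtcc
Aligned at the capitals without gaps, these stretches were identical at 63 of 107 bases. Ugt1a9 reached 50.65 FPKM in the intestine while Ugt1a10 never exceeded 0.0663 FPKM. Both values are uncertain, since 62.0% and 63.0% of the 50-base stretches of Ugt1a9 and Ugt1a10 recur in other transcripts.

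Among sulfotransferases, Sult1b1 and Sult1d1 behaved alike and depended on which forestomach library was used. Both lie in the chromosome 5 cluster beside the Ugt2 genes. Sult1b1, which sulfates phenols and thyroid hormones, was at 42.3 and 0.961 FPKM in the forestomach, 49.2 and 48.4 FPKM in the hindstomach, 84.6 and 106 FPKM in the intestine, and 63.9 and 28.85 FPKM in the colon. Sult1d1, which sulfates catecholamines, was at 49.65 and 1.75 FPKM in the forestomach, 96.6 and 73.2 FPKM in the hindstomach, 97.3 and 106 FPKM in the intestine, and 72.8 and 42.4 FPKM in the colon. For both genes only forestomach replicate 2 was near 0, and colon replicate 2 was the lowest of the bowel. With all libraries neither was called in any comparison. In the 7-library fit Sult1b1 rose from forestomach to hindstomach by 4.67 ± 0.44 (adjusted p 0.00168) and Sult1d1 by 4.95 ± 0.34 (adjusted p 0.00068), and both were called higher in the bowel (2.72 ± 0.29, adjusted p 0.00163, and 2.32 ± 0.22, adjusted p 0.0012).

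Sult2b1 and Sult1c2 marked the 2 forestomach libraries in opposite ways. Sult2b1, the cholesterol sulfotransferase of squamous epithelia such as epidermis, was at 20.4 and 103 FPKM in the forestomach, 2.00 and 2.48 FPKM in the hindstomach, 3.10 and 3.75 FPKM in the intestine, and 3.09 and 1.94 FPKM in the colon. Both forestomach libraries exceeded all others, replicate 2 by far the more. The hindstomach was lower (-3.87 ± 0.69, limma adjusted p 0.0342), a call kept in 6 of 15 alternatives. Without forestomach replicate 1 the difference was -5.01 ± 0.25. Sult1c2 was at 262 and 1.72 FPKM in the forestomach, 22.3 and 42.5 FPKM in the hindstomach, 0.313 and 0.371 FPKM in the intestine, and 0.879 and 0.835 FPKM in the colon. The high library is the one with gastric markers, and the next highest are the hindstomach pair. Sult1c2 was not called with all libraries. With that library left out it was higher in the hindstomach than in the forestomach (3.55 ± 0.37, adjusted p 0.00213) and fell from hindstomach to intestine (-4.57 ± 0.30, adjusted p 0.00165).

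Other sulfotransferases were scarce at this stage. Sult1a1, a phenol sulfotransferase, ran from 0.0476 to 4.35 FPKM, Sult5a1 from 0.0663 to 2.95 FPKM and Sult4a1, known from brain, from 0.105 to 2.32 FPKM, and none was called in either fit in which it was tested. The 8 Sult2a genes, which sulfate hydroxysteroids and bile acids, had a highest value of 0.111 FPKM, in Sult2a1, and 3 of them were listed at 0 in every library. The estrogen sulfotransferase Sult1e1 had a highest value of 0.22 FPKM. Among Ugt genes, 8 were not tested and none of them exceeded 0.0995 FPKM. In all, 21 members stayed under 1 FPKM in every library and 5 of these were listed at 0 throughout (Ugt2a2, Sult2a4, Sult2a5, Sult2a7 and Sult3a1). Silent and abundant members were close neighbours: within the chromosome 5 cluster Ugt2b1, Ugt2b37, Ugt2b38, Ugt2a1 and Ugt2a2 were not tested and lie between Ugt2b34 and Sult1d1, and Sult1e1, also not tested, lies next to Sult1d1.

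By single steps along the gut, the forestomach boundary carried the most member calls with all libraries. From forestomach to hindstomach 8 members were called higher and 3 lower, where 4.26% of all genes were called higher and 1.33% lower. The higher ones were Gstm1, Gstm2, Gstm3, Gstm4, Gstt2, Gstz1, Ugt1a9 and Ugt2b5, and the lower ones Gsto1, Sult2b1 and Ugt1a6a. Without forestomach replicate 1 the counts were 20 and 4, against 14.3% and 6.55% of all genes, and the median member changed by 1.28 where the median gene changed by 0.34. The genes that this added, all higher in the hindstomach except Gsta1 and Gsta2, were Gsta3, Gstk1, Gstm7, Gstp1, Gstt1, Gstt3, Sult1b1, Sult1c2, Sult1d1, Ugt2b34, Ugt2b35 and Ugt2b36. The number of calls at this step therefore rests on which forestomach library is used.

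From hindstomach to intestine 3 members were called higher (Ugt1a9, Ugt2b5 and Ugt2b36) and 3 lower (Gsta4, Gstm1 and Gstm2), where 2.55% of all genes were called higher and 2.47% lower. Leaving out forestomach replicate 1 gave 6 and 8, against 7.42% and 9.96%. All 6 of those called higher were Ugt genes, with Ugt1a1, Ugt1a7c and Ugt2a3 added, and the lower ones added Gsta1, Gsta3, Gsto1, Gstt3 and Sult1c2. From intestine to colon 0 members were called by limma in either fit, where 0.38% of all genes were called higher and 0% lower with all libraries, and 2.5% and 0.04% without forestomach replicate 1. At an unadjusted p under 0.05 there were 4 members with all libraries (Gsta4, Gstm3, Ugt1a9 and Ugt2b5) and 18 without that library, where 14.2% and 35.8% of all tested genes reached it. The colon pair itself was wide for many members, Gstm3 and Ugt1a9 among them.

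**Figure D4:**
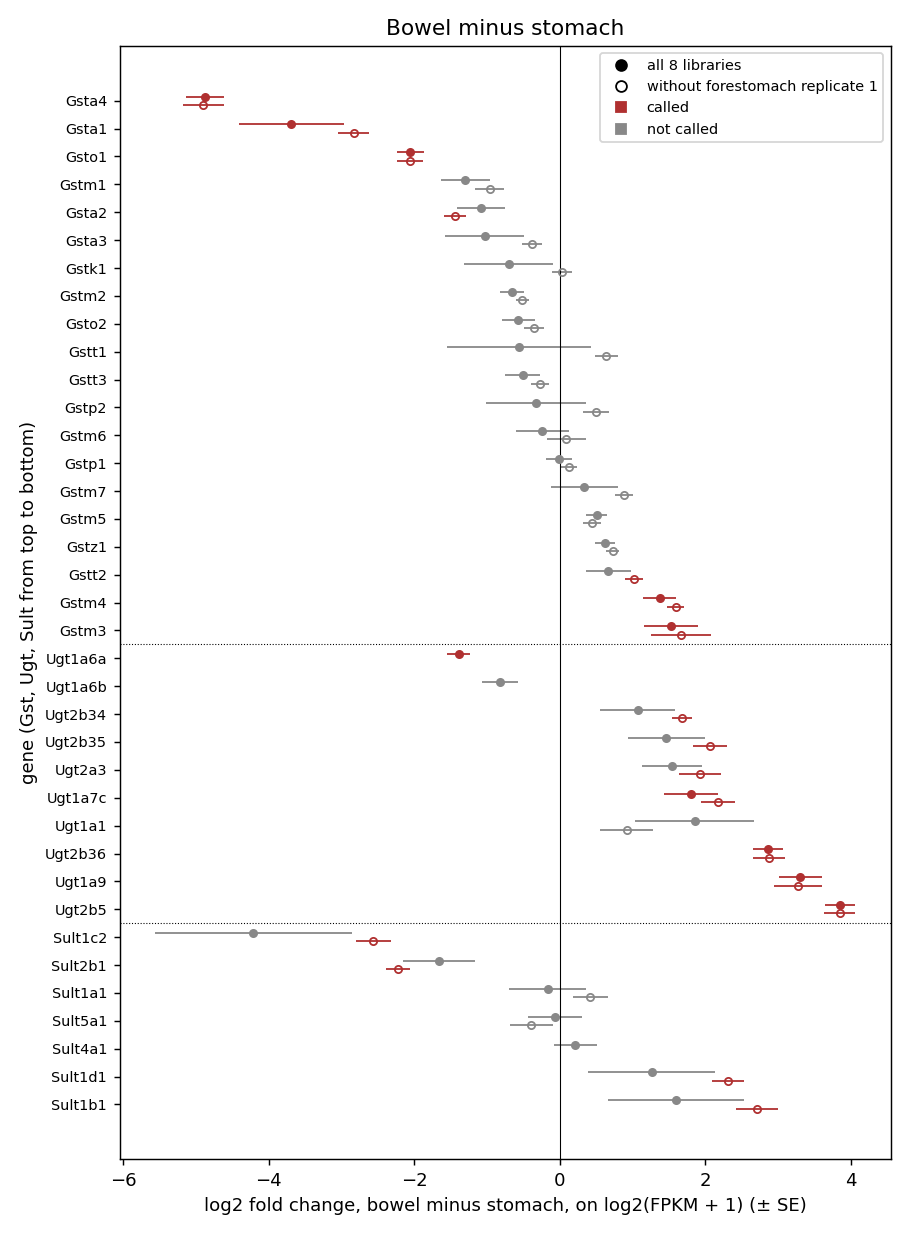
Bowel minus stomach log2 fold change with its SE for the tested members, filled with all 8 libraries and open without forestomach replicate 1, red where called and grey where not. Ugt2b5, Ugt1a9 and Ugt2b36 lie far to the higher side and Gsta4 far to the lower side in both fits, while Sult1b1 and Sult1d1 turn red only in the open symbols.

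Genes that supply or follow conjugation were described from 8 lists, in bowel minus stomach with all libraries (7.25% and 3.33% of all genes called, as above). Of 11 tested genes of PAPS supply and desulfation 6 were called higher and 0 lower, with a median of 1.41, and the count was the same without forestomach replicate 1 with a median of 1.08. Bpnt1, which clears the by-product of sulfation, was at 60.1 and 15.0 FPKM in the forestomach, 114 and 94.1 FPKM in the hindstomach, 452 and 491 FPKM in the intestine, and 302 and 119.5 FPKM in the colon (2.39 ± 0.49). The others with the largest change were the anion transporters Slc26a3 (2.61) and Slc26a1 (2.13) and the sulfatase Arsa (1.59), which do not make PAPS. The PAPS synthase Papss1, named outside the rule after its values were seen, was also called higher (1.48 ± 0.32, limma adjusted p 0.0276). The other synthase, Papss2, was not called (-0.18 ± 0.81). It was at 74.0 and 3.98 FPKM in the forestomach, 39.5 and 52.5 FPKM in the hindstomach, 23.7 and 29.1 FPKM in the intestine, and 29.1 and 20.9 FPKM in the colon. Of 15 genes of glutathione supply and turnover 3 were called higher and 1 lower, with a median of 0.27. The 3 were enzymes that break down glutathione or its conjugates at the cell surface: Ggt1 (0.928 and 0.384 FPKM in the forestomach, 19.3 and 19.8 in the hindstomach, 77.7 and 104 in the intestine, 61.1 and 20.3 in the colon, 3.31 ± 0.35), Dpep1 (2.81) and Anpep (2.45). Chac2, which cleaves glutathione inside the cell, was lower (-1.08). Of 8 genes of UDP-glucuronate supply and cleavage the 1 called was Gusb, the beta-glucuronidase that removes glucuronic acid (1.82 ± 0.19). Without forestomach replicate 1 the counts were 4 higher and 0 lower for glutathione genes and 1 each for UDP-glucuronate genes.

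Of 10 efflux genes 4 were called higher and 1 lower, with a median of -0.12. Abcc2, the apical pump for glutathione and glucuronide conjugates, was at 0.00723 and 0.0063 FPKM in the forestomach, at 1.80 and 1.61 FPKM in the hindstomach, 24.1 and 22.0 FPKM in the intestine, and 15.5 and 8.40 FPKM in the colon (3.39 ± 0.21, adjusted p 0.00056). Abcg2 (2.49) and Abcb1a (2.36), both apical pumps of the gut, and Abcc6 (2.20) were also higher. Of 19 phase I reductases and hydrolases 3 were higher and 3 lower, with a median of -0.48. The carbonyl reductase Cbr3 was at 101 and 76.4 FPKM in the forestomach, 37.2 and 49.4 FPKM in the hindstomach, 0.798 and 0.214 FPKM in the intestine, and 1.89 and 2.65 FPKM in the colon (-4.83 ± 0.21), and the epoxide hydrolase Ephx1 was lower too (-3.06 ± 0.24). The carboxylesterase Ces2e (3.70) and the aldo-keto reductase Akr1c19 (2.95) were higher. Without forestomach replicate 1 the efflux genes had 4 higher and 2 lower with a median of 0.17, and the phase I genes 6 higher and 4 lower with a median of 0.03, so both medians changed sign. Cbr3 and Ephx1 had the direction of Gsta4, and Abcc2 that of Ugt2b5.

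Of 17 Nrf2 targets and regulators 2 were called higher (Bach1, a repressor of that pathway, 1.92, and Srxn1, 1.30) and 3 lower, among them G6pdx (-1.48) and Me1 (-1.17), with a median of -0.09 that became 0.07 without forestomach replicate 1. Of 12 other conjugating enzymes 3 were higher (Nat8, 2.74, As3mt, 2.01, and Hpgds, 1.15) and 0 lower, with a median of 0.31, and 2 and 0 without that library. Of 20 xenobiotic and endodermal regulators 8 were higher and 1 lower, with a median of 1.41, led by the intestinal factors Cdx1 (4.92) and Cdx2 (4.66), the bile acid receptor Nr1h4 (3.64) and Hnf4g (3.54), with 10 higher and 2 lower without forestomach replicate 1. Hepatocyte markers were checked because liver tissue lies next to the gut and is rich in these enzymes. Their sum (12 genes) was 2.8 to 170.6 FPKM in the forestomach, 401.2 to 674.8 FPKM in the hindstomach and 420.6 to 1496.5 FPKM in the bowel. With all libraries 5 of the 11 tested were called higher in the bowel and 0 lower, with a median of 1.43. Apob and Cps1, which intestinal epithelium also makes, were among those called, and the others called are not named here. Alb, not called there, had 0.922 and 0 FPKM in the forestomach, 168 and 57.2 FPKM in the hindstomach, 47.8 and 0.257 FPKM in the intestine, and 5.91 and 6.49 FPKM in the colon. From forestomach to hindstomach 5 of the 11 were called higher and 0 lower, where 4.26% of all genes were called higher. The median marker rose by 3.45 at that step and the median gene by 0.39. Without forestomach replicate 1 these medians were 5.07 and 0.34. The part of liver RNA in the members' values was not tested.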

How the data were processed

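Poly(A) RNA-seq values of 8 epithelial libraries in 4 tissues were used, grouped by the sample titles. The deposited values are FPKM in 1 table of the authors. STAR 2.4.2a and GRCm38 are named in the submitters' processing notes, while the FPKM program, annotation and strandedness were not given in the sources used here. The table has 4 further columns that belong to no listed sample, and they were left out. Because FPKM is relative to library size, a few very abundant genes lower all others, and depth is unknown beyond a relative estimate from the steps of low values (deeper and shallower libraries).

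Genes that reached 1 FPKM in 2 or more libraries were analysed as log2(FPKM + 1) in R 4.3.3 by limma 3.58.1 (empirical Bayes, trended, 4 tissue means, 4 residual degrees of freedom), in 4 comparisons, with Benjamini-Hochberg adjustment over all genes tested. The fit was tested on simulated data. Their spread was taken from the hindstomach, intestine and colon pairs. They therefore do not show how the fit behaves with the unlike forestomach pair or with a library left out. Alternatives were another pseudocount, no filter, other scalings, a replicate block, a depth term, only the tissues compared, and each library left out. Values in every library, or for some genes a range over libraries, are given for members that were called or that averaged at least 10 FPKM in a tissue. Apart from Papss1, Papss2 and Nfe2l2, at most 4 called genes per companion list are named. The members and lists were chosen with earlier results of these data known. Coordinates come from GENCODE M21 and promoters from the RefSeq table of GRCm38.p6. Shared sequence was counted as 50-base stretches of annotated transcripts. Errors of log2 changes are SE. Some results that the rules allow are not reported here.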

Additional observations from a re-analysis of the deposited data

How the results depend on the processing

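Of the 10 members called in bowel minus stomach, Gsta4, Gsto1, Ugt1a9, Ugt2b36 and Ugt2b5 kept the call in all 14 alternatives. Ugt1a6a kept it in the 12 that tested it, all of which held both forestomach libraries, through which it passed the filter. Leaving out 1 library gave 6 to 18 calls, 18 without forestomach replicate 1. The replicate block gave 10 calls there and the depth term 9. For hindstomach minus forestomach, 11 members were called, and 7 without a filter, 7 with median-of-ratios scaling (4 higher and 3 lower, against 8 and 3), 5 with the replicate block, 6 with the depth term and 3 with only those tissues fitted. Leaving out 1 library gave 1 (without either hindstomach library) to 24 (without forestomach replicate 1). For intestine minus hindstomach, 6 were called, and 3 without a filter, 2 with the replicate block and 14 with only those tissues fitted. Leaving out 1 library gave 0 (without any 1 hindstomach or intestine library) to 14 (without either forestomach library). Colon minus intestine gave 0 calls in every alternative. The cause of these changes was not tested. Deviations of same-numbered libraries correlated across genes from -0.578 to 0.27, with no common sign, so the numbers were not treated as pairs. The value of -0.578 was between intestine and colon, whose opposite-numbered libraries thus deviated together. Intestine replicate 1 and colon replicate 2 were the deeper of their pairs (relative depth 1 and 0.857, against 0.498 and 0.471). They also held more mesenchymal markers in sum than the other library of their pair (409 against 88.3 FPKM and 1808 against 831 FPKM). Their small intestinal markers were lower (18851 against 27686 FPKM and 4516 against 14259 FPKM). The part of depth or of cell content in this correlation was not tested, and independence of the libraries was not shown. Between hindstomach and forestomach some uncalled log2 differences turned sign: Gstk1 to 0.0545 and Gstt1 to 0.0489 with equal totals, Gstt1 to 0.111 with the smaller pseudocount, and Sult1c2 to -0.134 with median-of-ratios scaling. They were, without forestomach replicate 1 and without replicate 2, 1.64 and -0.948 for Gsta3, 1.17 and -1.76 for Gstk1, 1.81 and -3.01 for Gstt1, and 3.55 and -3.05 for Sult1c2, which was at -0.2 without hindstomach replicate 2. With 2 libraries a tissue and unknown depth, low genes such as Ugt1a6a have no interval from counting.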
